A study of Mus musculus with 48 samples.

Results

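Core genes of the mammalian circadian clock are described here in the gastrocnemius, the large calf muscle, of mice given perfluorooctane sulfonate (PFOS), a persistent fluorinated surfactant. They are Arntl, Clock, Per1, Per2, Per3, Cry1, Cry2, Nr1d1, Nr1d2 and Dbp, 10 of the 54532 genes in the deposited count table, picked by gene symbol. All 10 passed the filter on low counts, as did 15583 genes in all. The 48 mice, with 1 library each, were males and females of 2 genotypes: hCYP2B6-Tg, which by its name carries human CYP2B6 (a cytochrome P450), and Cyp2b-null, which by its name lacks mouse Cyp2b genes. Every mouse was dosed by gavage over 21 days, the PFOS dose being 0, 1 or 10 mg/kg/day. The 0 mg/kg/day groups held 4 females and 5 males of hCYP2B6-Tg and 4 mice of each sex of Cyp2b-null. Each of these strata had 4 mice at 1 mg/kg/day and 4 at 10 mg/kg/day, except for 3 Cyp2b-null males at 10 mg/kg/day. The labels give no age, vehicle, strain background or promoter of the transgene, and they do not say whether hCYP2B6-Tg mice keep any mouse Cyp2b gene. They also give no hour of day for the collection of the muscle. Nothing in them says whether each mouse was housed or handled apart from the others, so p-values measure the spread between these mice.

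The clock runs as a loop of transcription that turns once a day. The proteins of Arntl (also called Bmal1) and Clock pair on E-box sequences in DNA and switch on the Per and Cry genes, whose proteins return to block the pair. The same pair switches on Nr1d1 and Nr1d2 (Rev-erb alpha and beta), which repress Arntl, and Dbp, an output factor that binds D-box sequences, so that Dbp is high when Arntl is low over the day. Skeletal muscle keeps such a clock, and Per1 and Per2 also answer directly to glucocorticoid hormone. The question put to the values was whether the genes of opposite phase shifted together.

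Total counts were between 11571142 and 19921061 per library. Summed myofibre markers (8 genes, Myh4 and Ckm among them) stood at 65200 to 185000 CPM, so each library was rich in muscle RNA although the extraction text of the labels names liver. CPM here means counts scaled to a common library size after TMM scaling. Library numbers in the labels rose with dose inside each stratum without overlap, and the labels do not say what the numbers record, so whatever they follow and the dose cannot be told apart. Several markers moved with the high dose: 8 of 10 adipocyte markers rose at 10 against 0 mg/kg/day (summed level 342 to 859 CPM at 0 and 613 to 2820 CPM at 10), 6 of 7 tested lymph node markers rose, and 5 of 8 myofibre markers fell (median sum 154000 CPM at 0 and 99000 CPM at 10). In 1 library the liver transcript Alb had 27859 counts against at most 224 in the others. The 224 counts were in replicate 2 of the Cyp2b-null males at 0 mg/kg/day, which was kept. In 5 other libraries the lymph node transcript Glycam1 had 41 to 790 counts, against at most 2 in the rest. Results that turn on these 6 libraries (1 by Alb and 5 by Glycam1) are given with and without them. Fewer cells of one type and less RNA per cell cannot be told apart in such bulk samples.

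Promoters are shown for 3 repressor genes that rose at 10 against 0 mg/kg/day (Per1, Cry2 and Ciart) and for 2 that did not pass there (Cry1 and Per3). RefSeq promoters (build GRCm38.p6) were matched for 9 of the 10 genes, with 13 entries, and the 250 bases before the start site were searched on both strands. Per2, which also rose, had no entry. For Cry2 and Nr1d1 the bases just after the start of the entry were found in no transcript of the gene. The E-box CACGTG was found in 6.02% of 32851 promoters, its variant CACGTT in 3.85%, the D-box TTATGTAA in 0.819% and the ROR element TAGGTCA, the site for Ror and Rev-erb receptors, in 2.23%. Per1 had 2 promoter entries, of which the first to be printed held an E-box 166 bases before its start and the other held none of these motifs. The entry with the E-box starts inside the gene, which runs from 69095217 to 69109960 on chr11 (plus strand). Cry1 held an E-box at 60 bases, with the variant at 79 bases. Cry2 held the variant at 166 bases and Nr1d1 at 28 bases. Per3 held D-boxes at 205 and 158 bases, and Ciart held 3 E-boxes, the nearer ones at 58 and 44 bases. None of the 13 windows held the ROR element. The matches did not divide the genes as the calls did, since Cry1 held the E-box and its variant and Cry2 the variant alone. A match is a run of letters and not a measured site. The windows of these 5 genes are printed 5′ to 3′ on the gene's strand, with matches in capitals. Matches on the other strand appear as their reverse complement (AACGTG for CACGTT). The windows lie at chr11:69098699-69098948 (plus strand) for Per1, chr2:92434070-92434319 (minus) for Cry2, chr3:95882229-95882478 (minus) for Ciart, chr10:85185055-85185304 (minus) for Cry1 and chr4:151044666-151044915 (minus) for Per3.
Per1: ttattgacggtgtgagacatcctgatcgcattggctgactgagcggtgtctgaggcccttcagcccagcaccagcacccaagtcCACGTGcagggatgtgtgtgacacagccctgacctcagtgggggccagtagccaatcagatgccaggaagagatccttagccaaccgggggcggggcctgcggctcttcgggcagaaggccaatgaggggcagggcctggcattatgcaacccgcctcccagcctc
Cry2: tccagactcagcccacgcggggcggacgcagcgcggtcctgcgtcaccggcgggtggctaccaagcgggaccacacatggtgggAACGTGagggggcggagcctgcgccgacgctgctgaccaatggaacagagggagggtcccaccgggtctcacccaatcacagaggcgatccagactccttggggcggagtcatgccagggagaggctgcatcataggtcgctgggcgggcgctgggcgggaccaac
Ciart: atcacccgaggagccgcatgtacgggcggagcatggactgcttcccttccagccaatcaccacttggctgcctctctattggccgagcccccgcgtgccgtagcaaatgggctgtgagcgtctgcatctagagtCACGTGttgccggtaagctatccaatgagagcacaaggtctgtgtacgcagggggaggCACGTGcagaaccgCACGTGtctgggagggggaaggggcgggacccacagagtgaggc
Cry1: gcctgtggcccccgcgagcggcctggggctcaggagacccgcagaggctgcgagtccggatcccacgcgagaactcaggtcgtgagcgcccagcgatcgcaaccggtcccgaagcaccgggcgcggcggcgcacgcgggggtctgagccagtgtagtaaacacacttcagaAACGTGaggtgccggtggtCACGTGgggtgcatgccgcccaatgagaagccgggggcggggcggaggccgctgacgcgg
Per3: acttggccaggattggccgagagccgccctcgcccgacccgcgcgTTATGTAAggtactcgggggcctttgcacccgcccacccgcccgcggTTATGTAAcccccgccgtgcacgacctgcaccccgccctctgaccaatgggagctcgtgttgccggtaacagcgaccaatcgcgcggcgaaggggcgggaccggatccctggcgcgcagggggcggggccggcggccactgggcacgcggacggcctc

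At 0 mg/kg/day the 10 transcripts spanned a wide range of level per length. Nr1d1 was highest at 57.7 ± 10.8 CPM per kb (SD, n = 17 mice). Nr1d2 followed at 27.4 ± 3.45 and Dbp at 19.1 ± 9.4 CPM per kb, and these neighbours differed by less than the SD of Dbp. Per1 (8.54 ± 3.34) and Cry2 (6.68 ± 1.32 CPM per kb) came next and also lay within their spread. Cry1 (4.6 ± 0.631), Arntl (3.69 ± 1.14), Per3 (3.63 ± 1.02) and Clock (3.12 ± 0.611 CPM per kb) formed a run in which each step was within the spread of the neighbours. Per2 was lowest at 1.68 ± 0.741 CPM per kb. The spread between mice was unequal: the highest mouse exceeded the lowest from 37.2 to 3.98 CPM per kb for Dbp, but only from 32.7 to 20.6 for Nr1d2 and from 5.49 to 2.92 for Cry1. The use of strand in counting is not given in the sources used here, and 3 of the genes overlap a well expressed neighbour. Nr1d1 (chr11:98767932-98775333) overlaps Thra on the other strand by 1075 bases, with mean counts of 2480 and 1070. Dbp (chr7:45705088-45710203) overlaps Sphk2 on the other strand by 737 bases, with mean counts of 760.8 and 252.2. Per3 (chr4:151003652-151044665, 41014 bases) lies wholly inside Camta1 on the same strand, with mean counts of 523.2 and 471.6.

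The calls at the high dose, averaged over the strata, were all in the Per and Cry families. At 10 mg/kg/day Per1, Per2 and Cry2 rose over 0 by 1.12 ± 0.19, 1.01 ± 0.17 and 0.88 ± 0.14 on the log2 scale (SE), as a mean of the 4 strata (edgeR quasi-likelihood test with Benjamini-Hochberg adjustment over all genes, adjusted p = 7.59e-06, 4.95e-06 and 1.45e-06). All 15 mice at 10 mg/kg/day lay above the 0 mg/kg/day mean of their own stratum for each of the 3 genes. These were 3 of the 10 clock genes, where 47.5% of all genes tested passed in this comparison and 25% passed upward, so a share of 3 in 10 is not above the background. They were 2.17, 2.02 and 1.84 times higher, and each passed in all 59 alternative settings. The median log2 change was 0.04 over the 10 genes and 0.04 over all genes tested.

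Per1 codes for a period protein that joins the Cry proteins in blocking Clock and Arntl. In hCYP2B6-Tg females it stood at 29.5, 38.3, 49.6 and 73.8 CPM at 0 and at 93, 142.2, 158.7 and 232.6 CPM at 10 mg/kg/day. In hCYP2B6-Tg males it stood at 30.8, 31.6, 39.5, 42.2 and 63.1 CPM at 0 and at 70.7, 75.5, 85.9 and 97.3 CPM at 10. In Cyp2b-null males it stood at 25.6, 53.3, 59.7 and 80.4 CPM at 0 and at 124.7, 155.5 and 156.5 CPM at 10. In these strata every mouse at the high dose was above every mouse at 0. The share of all genes with such a complete upward separation was 10.4%, 5.69% and 14.3% in the same order. In Cyp2b-null females the groups overlapped, with 20.1, 39.6, 63.5 and 77.2 CPM at 0 and 53, 56.4, 67.6 and 78.5 CPM at 10. The log2 change was 1.71 ± 0.39 in hCYP2B6-Tg females, 0.99 ± 0.36 in males of the same genotype and 1.41 ± 0.41 in Cyp2b-null males (edgeR adjusted p = 0.001, 0.0495 and 0.0135). In Cyp2b-null females it was 0.35 ± 0.38 (edgeR adjusted p = 0.592), with a 95% interval of -0.42 to 1.13. At 1 mg/kg/day Per1 ran from 22.6 to 141.3 CPM (median 56, n = 16), beside 20.1 to 80.4 CPM (median 42.2, n = 17) at 0, with overlap.

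Per2, a second period gene and the least abundant of the 10, rose in the same way. In Cyp2b-null females it stood at 3.74, 4.12, 5 and 6.04 CPM at 0 and at 11.4, 12.5, 15.9 and 19.2 CPM at 10 mg/kg/day. In Cyp2b-null males it stood at 8.5, 9.79, 10.1 and 13.5 CPM at 0 and at 15.6, 17 and 21.1 CPM at 10. In hCYP2B6-Tg males it stood at 7.55, 14.1, 14.1, 14.8 and 16.3 CPM at 0 and at 21.1, 24.1, 24.9 and 27.3 CPM at 10. The groups did not overlap in these 3 strata, where 7.07%, 14.3% and 5.69% of all genes separated upward. In hCYP2B6-Tg females they did overlap, with 4.48, 8.84, 9.97 and 16.2 CPM at 0 and 12.9, 13.9, 14.7 and 26.1 CPM at 10. At 1 mg/kg/day these females ran from 8.17 to 26 CPM (median 15.3, beside 14.3 at 10). The log2 change at 10 against 0 was 1.64 ± 0.35 in Cyp2b-null females and 0.86 ± 0.31 in hCYP2B6-Tg males (edgeR adjusted p = 0.0018 and 0.0486). The values for hCYP2B6-Tg females (0.77 ± 0.34) and Cyp2b-null males (0.78 ± 0.36) did not pass (edgeR adjusted p = 0.0841 and 0.141). In the females it passed without the 6 libraries (1.2, edgeR adjusted p = 0.0205), without control replicate 4 (1.12, 0.0197) and without scaling factors (0.92, 0.0368). In the males it passed in a fit of only the groups compared (0.80, edgeR adjusted p = 0.00957) and by limma voom (0.74, 0.0396). Per2 was also the only one of the 10 that differed between the sexes at 0 mg/kg/day, being lower in females by a log2 difference of -0.79 ± 0.24 (edgeR adjusted p = 0.0362), where 7.59% of all genes passed. That call was lost on leaving out any 1 of 12 of the 17 mice (edgeR adjusted p = 0.051 to 0.0904), and it was kept without replicate 4 of the hCYP2B6-Tg females, replicate 2 of the Cyp2b-null females, replicate 4 of the hCYP2B6-Tg males or replicate 1 or 3 of the Cyp2b-null males.

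Cry2 codes for a cryptochrome, the partner of the period proteins. In Cyp2b-null males it stood at 37.9, 41, 44.6 and 45.6 CPM at 0 and at 81.5, 81.9 and 83.7 CPM at 10 mg/kg/day. In Cyp2b-null females it stood at 30, 33.6, 33.9 and 34.6 CPM at 0 and at 38.8, 48.8, 51.8 and 55.6 CPM at 10. In hCYP2B6-Tg males it stood at 38, 43.1, 50.9, 54.9 and 58.2 CPM at 0 and at 61.9, 68.8, 69.8 and 78 CPM at 10. Every high-dose mouse of these 3 strata was above every mouse at 0, where 14.3%, 7.07% and 5.69% of all genes separated upward. In hCYP2B6-Tg females Cry2 was 35.3, 38.2, 43.5 and 54.3 CPM at 0 and 53.6, 66.7, 70.3 and 292.1 CPM at 10. The mouse at 292.1 CPM stood far above every other, and it was replicate 2 of that group. The log2 change was 1.49 ± 0.28 for hCYP2B6-Tg females and 0.96 ± 0.29 for Cyp2b-null males (edgeR adjusted p = 0.000106 and 0.0194). The values for hCYP2B6-Tg males (0.51 ± 0.26) and Cyp2b-null females (0.56 ± 0.28) did not pass (edgeR adjusted p = 0.168 and 0.176). Without that mouse the change in hCYP2B6-Tg females was 0.57 (edgeR adjusted p = 0.00852) and the average over strata was 0.65. The other 2 values then passed, at 0.51 and 0.56 (edgeR adjusted p = 0.00657 and 0.00689), since all groups share 1 estimate of the spread per gene. In Cyp2b-null females Cry2 also passed in a fit of only the groups compared and by limma voom (adjusted p = 0.0342 and 0.0339). The same 2 settings called Cry2 in hCYP2B6-Tg males (adjusted p = 0.0276 and 0.0299).

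**Figure D1:**
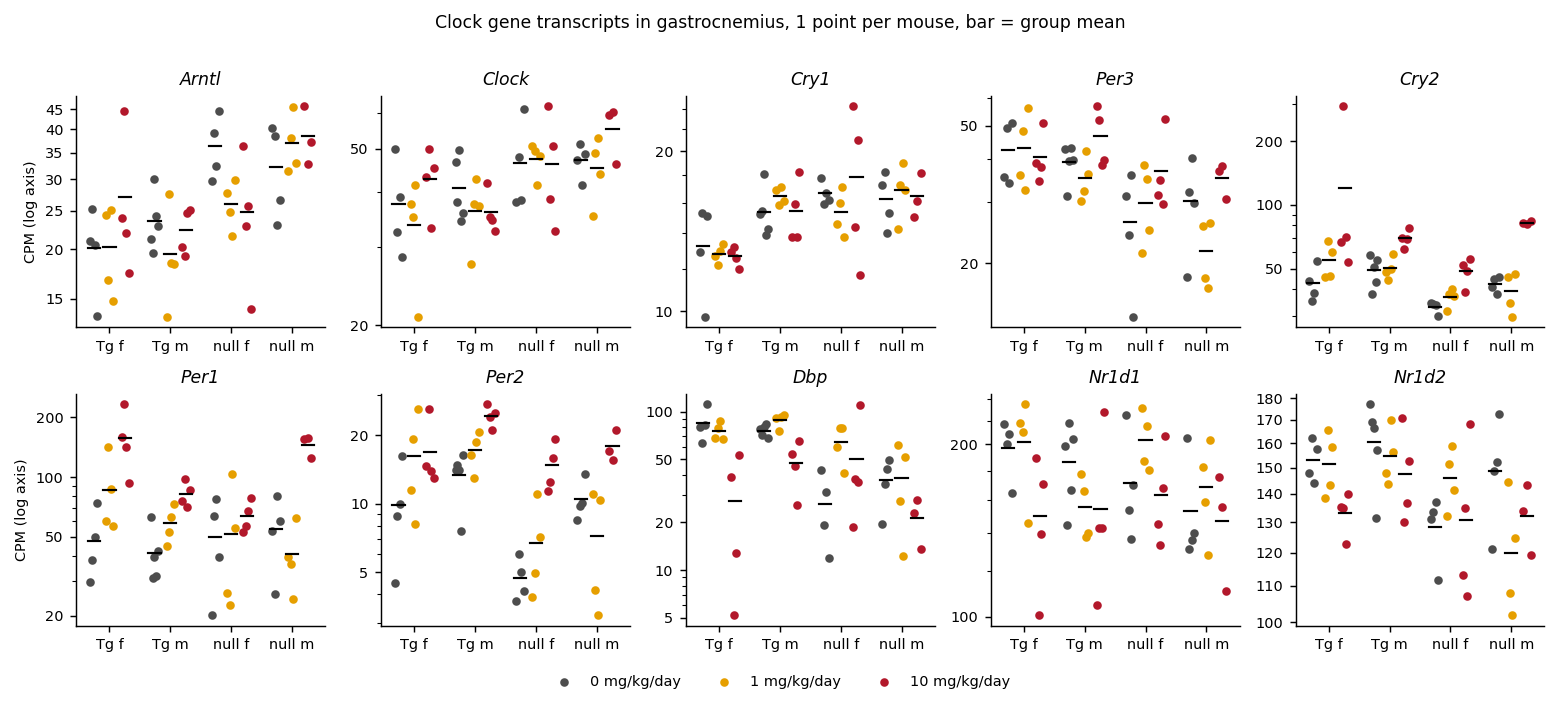
Level of each of the 10 clock transcripts in CPM (log axis) for every mouse, by stratum (Tg, hCYP2B6-Tg; null, Cyp2b-null; f, female; m, male) and PFOS dose (colour), with a bar at each group mean. Group means of Per1, Per2 and Cry2 are highest at 10 mg/kg/day in each stratum, though single mice at 1 and 10 mg/kg/day overlap in some. In hCYP2B6-Tg females the Per2 means are close, at 16.2 CPM at 1 and 16.9 CPM at 10 mg/kg/day. A single Cry2 point reaches 292.1 CPM, and Dbp falls as low as 5.2 CPM.

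Per3 and Cry1, from the same repressor families, did not pass at 10 against 0 mg/kg/day. Per3, a period gene that is dispensable for the core loop, was 14 to 50.8 CPM at 0 (median 35.5, n = 17), 17 to 56.1 CPM at 1 (median 32.4, n = 16) and 29.7 to 56.9 CPM at 10 mg/kg/day (median 38.2, n = 15). Its log2 change at 10 against 0 was 0.23 ± 0.12 (95% interval -0.01 to 0.46, edgeR adjusted p = 0.106), and 11 of 15 mice lay above the mean of their stratum at 0. Without the 6 libraries it was 0.34 (edgeR adjusted p = 0.0363). Cry1, the second cryptochrome, was 9.75 to 18.3 CPM at 0 (median 15.3) and 11.7 to 24.3 CPM at 10 (median 14.4). Its log2 change was 0.02 ± 0.07 (95% interval -0.13 to 0.16, edgeR adjusted p = 0.881), so a change of the size seen in Cry2 lies outside the interval. The 2 highest Cry1 values of the study, 24.3 and 21 CPM, were both in Cyp2b-null females at 10 mg/kg/day, next to 11.7 CPM in the same group.

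The activators did not pass the test against 0 mg/kg/day at either dose. Arntl was 13.6 to 44.4 CPM at 0 (median 25.3), 13.5 to 45.5 CPM at 1 (median 24.9) and 14.1 to 45.8 CPM at 10 mg/kg/day (median 24.7). The 3 ranges were nearly the same, and the log2 change at 10 against 0 was 0.01 ± 0.12 (95% interval -0.24 to 0.26, edgeR adjusted p = 0.936). Inside strata it pointed both ways, with 0.43 ± 0.25 for hCYP2B6-Tg females against -0.56 ± 0.24 for those of Cyp2b-null (edgeR adjusted p = 0.207 and 0.127). The Cyp2b-null females had 29.7, 32.4, 39.1 and 44.4 CPM of Arntl at 0 and 14.1, 22.8, 25.7 and 36.3 CPM at 10, with overlap, and passed without high-dose replicate 1 (-0.81, edgeR adjusted p = 0.0458). Clock, the partner of Arntl in the activating pair, was 28.5 to 61.4 CPM at 0 (median 41.4) and 32.7 to 62.3 CPM at 10 (median 43.1). Its log2 change was 0.06 ± 0.10 (95% interval -0.14 to 0.25, edgeR adjusted p = 0.644).

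Dbp, the D-box output factor, gave the widest ratio of highest to lowest mouse at 0 mg/kg/day. In hCYP2B6-Tg females it stood at 63.6, 80.1, 83 and 111.5 CPM at 0, at 67.1, 67.9, 79 and 87.3 CPM at 1 and at 5.2, 12.9, 38.5 and 53.2 CPM at 10 mg/kg/day. In hCYP2B6-Tg males it stood at 68.5, 71, 77.5, 80.5 and 83.5 CPM at 0, at 75.4, 91, 92.6 and 95.2 CPM at 1 and at 25.7, 45.7, 54 and 65.2 CPM at 10. In both hCYP2B6-Tg strata every high-dose mouse was below every mouse at 0 and at 1, where 12.8% and 7.3% of all genes separated downward from 0. In Cyp2b-null males it stood at 19.6, 34.9, 43.8 and 49.4 CPM at 0, at 12.2, 27.5, 51.8 and 61.7 CPM at 1 and at 13.6, 22.8 and 27.8 CPM at 10. In Cyp2b-null females it stood at 11.9, 19.4, 31.1 and 42.7 CPM at 0, at 40.9, 59.9, 78.5 and 78.9 CPM at 1 and at 18.8, 35.9, 37.6 and 110.2 CPM at 10. The last group overlapped its control, and its replicate 4, at 110.2 CPM, was nearly as high as the 111.5 CPM that was the top of the study. The log2 change was -1.63 ± 0.47 in hCYP2B6-Tg females (edgeR adjusted p = 0.00836), -0.68 ± 0.44 in males of that genotype, and -0.79 ± 0.51 and 0.95 ± 0.47 in males and females of Cyp2b-null (edgeR adjusted p = 0.291, 0.332 and 0.181). Averaged over strata it was -0.54 ± 0.24 (95% interval -1.02 to -0.06, edgeR adjusted p = 0.0562), and 12 of 15 mice lay below the 0 mg/kg/day mean of their stratum. It passed in 10 of 59 alternative settings, with adjusted p from 0.0071 to 0.32. Without replicate 4 of the Cyp2b-null females at 10 mg/kg/day the average was -0.72 (edgeR adjusted p = 0.0071) and the change in that stratum 0.23. In hCYP2B6-Tg females the call was lost in a fit of only the groups compared (edgeR adjusted p = 0.0806), as was that of Cry2 (0.0702). Sphk2, the neighbour that overlaps Dbp on the other strand, had a log2 change of 0.21 (edgeR adjusted p = 0.0252), a call lost in 6 of 59 settings.

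The Rev-erb receptors, which repress Arntl, did not pass the test. Nr1d1 was 131.5 to 224.9 CPM at 0 (median 169.7) and 100.7 to 227.6 CPM at 10 mg/kg/day (median 145.3). Its log2 change was -0.20 ± 0.10 (95% interval -0.41 to 0.01, edgeR adjusted p = 0.105), and 11 of 15 mice lay below the mean of their stratum at 0. Thra, its overlapping neighbour, had a log2 change of -0.13 (edgeR adjusted p = 0.0275), lost in 8 of 59 settings and at 0.09 without scaling factors. Nr1d2 was 148.3 ± 18.7 CPM (SD, n = 17, median 148.7) at 0 and 136.2 ± 17.9 CPM (n = 15, median 135.1) at 10. Its log2 change was -0.12 ± 0.06 (95% interval -0.24 to 0.01, edgeR adjusted p = 0.11), and 12 of 15 mice lay below. Each passed in 2 of 59 alternative settings: Nr1d1 with the adipocyte covariate (-0.31, edgeR adjusted p = 0.0414) and without replicate 4 of the hCYP2B6-Tg males at 10 (-0.27, 0.0216), and Nr1d2 by limma voom (-0.14, adjusted p = 0.0288) and without replicate 4 of the Cyp2b-null females at 10 (-0.15, 0.0231). Without scaling factors the changes of Nr1d1 and Nr1d2 were 0.009 and 0.095, beside 0.26 for the median gene. All 4 hCYP2B6-Tg females at 10 (mean 133.2 ± 7.38 CPM, SD, n = 4) had less Nr1d2 than all 4 at 0 (152.9 ± 8.38 CPM), at a log2 change of -0.20 ± 0.12 (edgeR adjusted p = 0.222), where 12.8% of all genes separated downward.

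**Figure D2:**
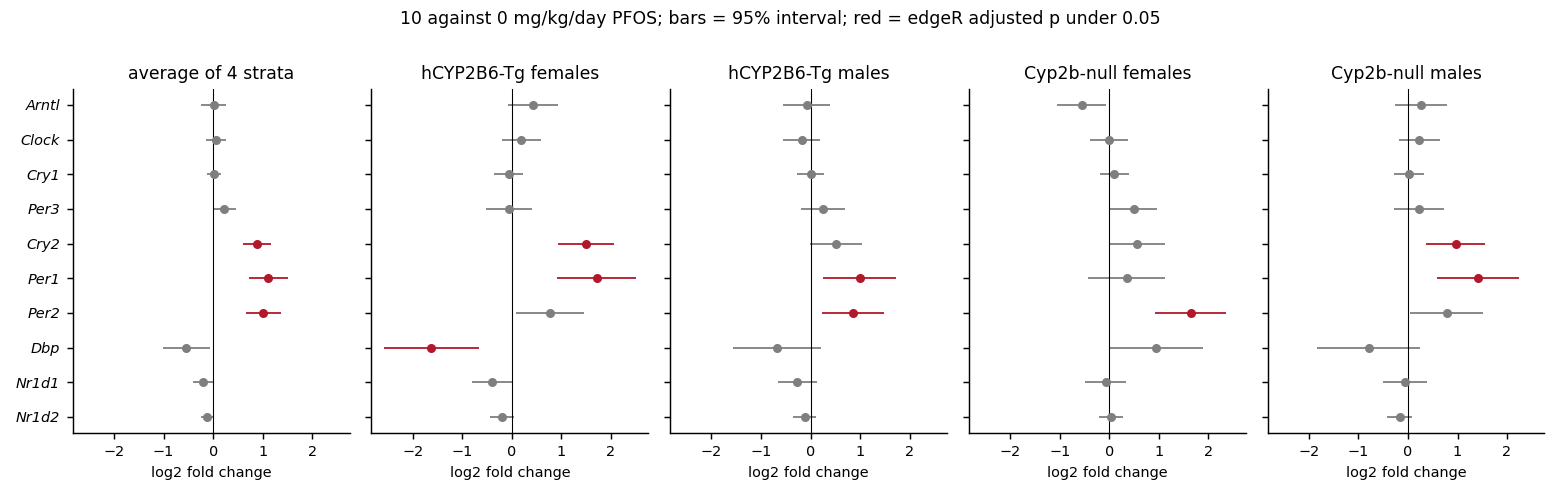
Log2 fold change of each clock transcript at 10 against 0 mg/kg/day with its 95% interval, as the mean of the strata (left) and in each stratum, with red for an edgeR adjusted p under 0.05. Per1, Per2 and Cry2 lie to the right of 0 in all 5 panels, and Dbp lies to the left in all but the Cyp2b-null females.

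Between strata the counts of called clock genes were small. Among hCYP2B6-Tg mice 3 of the 10 passed in females (Per1, Cry2 and Dbp, where 27.7% of all genes passed) and 2 in males (Per1 and Per2, 18.5%). Among Cyp2b-null mice 1 passed in females (Per2, 12.7%) and 2 in males (Per1 and Cry2, 15.8%). The calls in hCYP2B6-Tg males sat at the threshold: Per1 passed in 27 and Per2 in 26 of 59 alternative settings, and leaving out any 1 of the 4 high-dose mice lost both. Without the 6 libraries named above the edgeR adjusted p was 0.0793 for Per1 and 0.0599 for Per2. The call of Per1 in Cyp2b-null males was lost without their control replicate 2, at a log2 change of 1.18 (edgeR adjusted p = 0.0627), and that of Cry2 without control replicate 3 or high-dose replicate 1 or 3 (edgeR adjusted p = 0.0505, 0.0508 and 0.0649). Different calls do not show different effects. The test of the difference between the sexes in the effect of 10 mg/kg/day passed for 0 of the 10 genes (0 at an unadjusted p under 0.05; 0.128% of all genes passed). The same test between the genotypes passed for 0 of the 10 and for 0% of all genes (1 of the 10 at an unadjusted p under 0.05). That 1 was Dbp, whose effect was lower in hCYP2B6-Tg than in Cyp2b-null mice by a log2 difference of -1.23 ± 0.47 (edgeR adjusted p = 0.461).

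The low dose gave no call among the clock genes. At 1 against 0 mg/kg/day 0 of the 10 passed by edgeR, with 0% of all genes called and 0 of the 10 at an unadjusted p under 0.05, and changes ran from -0.14 for Arntl to 0.35 for Dbp on the log2 scale. At 10 against 1, where 46.9% of all genes passed, 5 of the 10 did. Per1 (0.87 ± 0.19), Per2 (0.75 ± 0.17), Cry2 (0.77 ± 0.14) and Per3 (0.33 ± 0.12) rose (edgeR adjusted p = 0.000295, 0.000379, 1.69e-05 and 0.0194), and Dbp fell (-0.89 ± 0.24, edgeR adjusted p = 0.00221). All 5 passed in each of the 59 alternative settings. This comparison shares its high-dose mice with 10 against 0, and 1 against 0 shares its control mice with it, so none of the 3 sets of changes is independent. Averaged over strata, Dbp was at 0.35 ± 0.23 for 1 against 0 (95% interval -0.11 to 0.81) and at -0.54 ± 0.24 for 10 against 0. The signs differed between the doses in males (0.22 and -0.68 in hCYP2B6-Tg, 0.05 and -0.79 in Cyp2b-null). In females they did not (-0.17 and -1.63 in hCYP2B6-Tg, 1.30 and 0.95 in Cyp2b-null). The largest low-dose value was Dbp in Cyp2b-null females, at 1.30 ± 0.47 on the log2 scale (edgeR adjusted p = 1). Within strata 0 of the 10 passed at the low dose by edgeR, where at most 0.0128% of all genes did (hCYP2B6-Tg males). At an unadjusted p under 0.05 there were 2 of the 10 in hCYP2B6-Tg females (Per1 and Per2), 1 in Cyp2b-null females (Dbp), 1 in males of that genotype (Nr1d2) and 0 in hCYP2B6-Tg males.

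Whether opposite-phase genes shifted together was read first from the direction in each of the 15 high-dose mice, against the 0 mg/kg/day mean of its stratum. Mice of a stratum share the same control mean, so the 15 directions are not independent. Arntl was up and Dbp down in 9 mice, Arntl down and Dbp up in 3, and both down in 3. No mouse had both up. The mice with Arntl down and Dbp up were replicates 2, 3 and 4 of the Cyp2b-null females. The controls of that stratum had the lowest mean Dbp (26.3 CPM) and the highest mean Arntl (36.4 CPM) at 0 mg/kg/day. Per1, Per2 and Cry2 were up in all 15 mice, and Arntl was up in 9 and down in 6. Genes that are up in every mouse cannot show by direction whether they followed Arntl. Per1 and Dbp, both driven by the Arntl and Clock pair, pointed in opposite directions in 12 of 15 mice, which are the 12 with Dbp down.

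The log2 level of Dbp minus that of Arntl within 1 library puts the opposite-phase pair on a single scale that library size cannot shift. In hCYP2B6-Tg mice it was 1.87 ± 0.49 (SD, n = 9) at 0, 2.08 ± 0.46 (n = 8) at 1 and 0.31 ± 1.60 (n = 8) at 10 mg/kg/day. In Cyp2b-null mice it was -0.23 ± 1.02 (n = 8), 0.54 ± 1.22 (n = 8) and 0.07 ± 1.5 (n = 7). The sexes of Cyp2b-null pointed opposite ways at 10 against 0, from -0.61 ± 1.07 to 0.81 ± 1.62 in females (n = 4 and 4) and from 0.16 ± 0.94 to -0.90 ± 0.61 in males (n = 4 and 3). The hCYP2B6-Tg mice were more scattered at the high dose, from -3.10 to 1.61 against 1.33 to 3.03 at 0, and their widest group was the females (-3.10 to 1.61). Per2 minus Dbp, 2 genes driven by the Arntl and Clock pair, moved at the high dose from -2.47 ± 0.78 (n = 17) to -0.75 ± 1.17 (n = 15), and Per1 minus Dbp from -0.14 ± 1.12 to 1.75 ± 1.53. Per1 minus Dbp was higher at 10 than at 0 in 3 strata but not in Cyp2b-null females, at 0.92 ± 1.35 and 0.63 ± 0.83. Per2 minus Arntl moved from -1.59 ± 1.03 to -0.54 ± 0.64. These values are given without a test. Without the hour of collection, a change of phase and a change of level cannot be told apart in them.

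Within groups some opposite-phase pairs varied against each other between mice. After the mean of each of the 12 groups was subtracted, Arntl and Dbp had Pearson's r = -0.70 and Spearman's rho = -0.63 over the 48 mice (permutation test of 100000 permutations, p = 1e-05, the smallest they can give, and p = 3e-05, adjusted 8.5e-05 and 0.00034 over 17 relations). Without the 2 mice farthest from the median of Arntl, r was -0.59, and at 0, 1 and 10 mg/kg/day it was -0.71, -0.47 and -0.81. By genotype it was -0.56 (hCYP2B6-Tg) and -0.85 (Cyp2b-null). Arntl also went with Clock (r = 0.62, rho = 0.59, permutation adjusted p = 0.000476 and 0.000578). It went against Per3 (r = -0.59, rho = -0.62, permutation adjusted p = 0.00034 for both) and Nr1d2 (r = -0.50, rho = -0.54, permutation adjusted p = 0.00343 and 0.00161). Without the 2 farthest mice these r were 0.59, -0.56 and -0.48, and each kept its sign at every dose. Dbp went with Per3 (r = 0.62, rho = 0.63, permutation adjusted p = 8.5e-05 and 0.00034) and Nr1d2 (r = 0.60, rho = 0.61, permutation adjusted p = 0.000467 and 0.000578), at 0.64 and 0.69 without the 2 farthest mice. Its relation with Nr1d1 (r = 0.47, rho = 0.41, permutation adjusted p = 0.0204 and 0.0382, r = 0.38 without the 2 farthest) did not hold at every dose, with r = -0.18 at 0 mg/kg/day. By genotype (hCYP2B6-Tg, then Cyp2b-null) r was 0.19 and 0.85 for Dbp with Nr1d2, 0.34 and 0.81 for Dbp with Per3, -0.20 and -0.77 for Arntl with Nr1d2, -0.48 and -0.73 for Arntl with Per3 and 0.50 and 0.79 for Arntl with Clock. Each was weaker in hCYP2B6-Tg mice, a difference that was not tested. Of other opposite-phase pairs, Arntl with Per2 passed by rho but not by r, as given below. Arntl with Nr1d1 and Dbp with Clock passed by neither. Arntl with Nr1d1 had r = -0.05 and rho = -0.01 (permutation adjusted p = 0.763 and 0.972), with r = 0.39 at 0 mg/kg/day, and Dbp with Clock had r = -0.34 and rho = -0.27 (permutation adjusted p = 0.0763 and 0.203).

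Per1 and Cry2 did not pass with either gene by the same test. Per1 had r = -0.14 with Arntl and 0.05 with Dbp (rho = -0.19 and 0.23, permutation adjusted p of r = 0.485 and 0.763). Cry2 had r = 0.20 with Arntl and -0.26 with Dbp (rho = -0.16 and 0.21, permutation adjusted p of r = 0.542 and 0.6), and both turned sign without the 2 farthest mice (-0.07 and 0.33). With Arntl its r was -0.27, -0.69 and 0.64 at 0, 1 and 10 mg/kg/day, and with Dbp 0.35, 0.65 and -0.61. By genotype r with Dbp was -0.65 in hCYP2B6-Tg and 0.58 in Cyp2b-null mice, so the value over all mice joins groups of opposite sign. The hCYP2B6-Tg value and those at 10 mg/kg/day include replicate 2 of the hCYP2B6-Tg females at that dose. That mouse had 292.1 CPM of Cry2 against 53.6 to 70.3 CPM in the rest of its group, and the group's lowest Dbp (5.2 CPM). These r were not computed without it. Per2 had r = -0.34 with Arntl (rho = -0.40, permutation adjusted p = 0.0607 and 0.0354), at -0.38, -0.70 and 0.17 over the doses. Without the 2 farthest mice its r was -0.46. The libraries of a group share a dose and a run of library numbers, and the part of what those numbers follow was not tested.

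**Figure D3:**
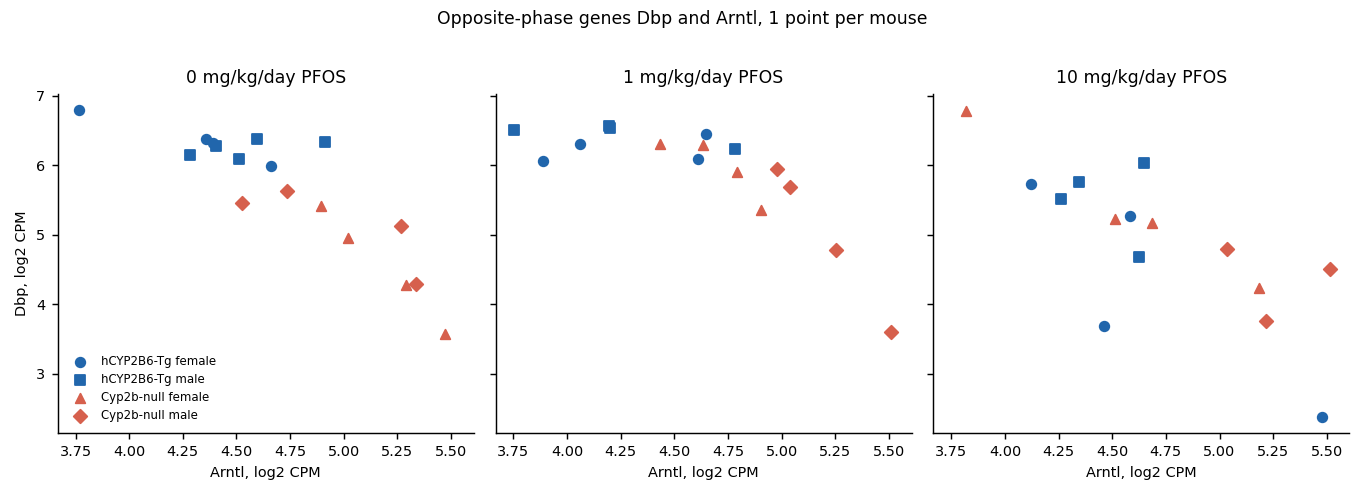
Dbp against Arntl, both as log2 CPM, for every mouse at 0, 1 and 10 mg/kg/day PFOS (panels), with symbols for the 4 strata. Mice with more Arntl tend to have less Dbp at each dose, the hCYP2B6-Tg mice at 0 and 1 mg/kg/day sit in a narrow band of high Dbp, and at 10 mg/kg/day they spread down to the lowest Dbp of the study.

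The genes most like Arntl and Dbp in this within-group variation were found among 10549 other genes, over 48 mice. Nearest to Arntl were Slc25a36 and Slc35f5 (both r = 0.65) and Rbm6, Nfil3 and Ppp6r3 (all r = 0.64), and most opposed were Echdc2 (-0.65), Krt222 and Bhlhe40 (both -0.61), Mylk4 (-0.60) and Kcna7 (-0.59). Nearest to Dbp were Bhlhe40 (r = 0.86), Nkain1 (0.80), Jph2 and Rnf150 (both 0.78) and Ccdc88c (0.77), and most opposed were Sdc4 (-0.77), Atp6v1h (-0.71), Ddx24 (-0.70), Cdkn1a (-0.69) and Ddx56 (-0.69). Of these, Nfil3 codes for a D-box repressor, and Bhlhe40 for an E-box repressor. These values describe a ranking of genes that share libraries and are given without a test.

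Dbp, but not Arntl, separated the genotypes before any PFOS without overlap. At 0 mg/kg/day Dbp was 63.6 to 111.5 CPM in the 9 hCYP2B6-Tg mice and 11.9 to 49.4 CPM in the 8 Cyp2b-null mice, with no overlap in either sex. It was the only 1 of 15583 genes with every hCYP2B6-Tg value above every Cyp2b-null value (0.00642% of genes), and 0 genes separated the other way. The medians of Arntl lay in the opposite order with overlap, at 13.6 to 30.1 CPM (median 21.2) against 23 to 44.4 CPM (median 35.4). The log2 difference, hCYP2B6-Tg minus Cyp2b-null, was 1.37 ± 0.33 for Dbp and -0.65 ± 0.17 for Arntl (edgeR adjusted p = 0.222 and 0.4). Neither passed, nor did any gene: 0% of all genes were called by edgeR, while 6 of the 10 clock genes and 3.43% of all genes had an unadjusted p under 0.05. limma voom with sample quality weights called 5 genes, among them Dbp (1.46, adjusted p = 0.00882) and Arntl (-0.69, adjusted p = 0.0353). Over the 59 alternative settings adjusted p ran from 0.00882 to 0.739 for Dbp and from 0.0353 to 1 for Arntl, and neither changed sign. The 6 were Dbp, Arntl, Per3 (0.54 ± 0.16), Per2 (0.71 ± 0.24), Nr1d2 (0.18 ± 0.08) and Cry1 (-0.20 ± 0.10). Of a list of 5 genes grouped with Arntl (Arntl, Clock, Npas2, Nfil3 and Cry1) 5 had values below 0 for hCYP2B6-Tg minus Cyp2b-null, with a median log2 difference of -0.52. Of 10 genes grouped with Dbp (Dbp, Nr1d1, Nr1d2, Per1, Per2, Per3, Tef, Hlf, Ciart and Bhlhe41) 9 had values above 0, with a median of 0.27 beside 0.01 over all genes, and Per1 was the exception at -0.23 ± 0.26. Between mice of all doses Per1 and Per2 had r = 0.05 and 0.17 with Dbp (permutation adjusted p = 0.763 and 0.461). These values join groups of opposite sign. By genotype (hCYP2B6-Tg, then Cyp2b-null) r was -0.20 and 0.21 for Per1 and -0.21 and 0.53 for Per2. For Per2 it was 0.16, 0.56 and -0.22 at 0, 1 and 10 mg/kg/day. The genes of both lists were read in the same mice, so their signs are not independent. Both lists were also chosen with earlier results of these data known. The signs of the lists were opposite, with 0 of 5 and 0 of 10 genes called by edgeR. At 10 against 0 mg/kg/day the same lists gave medians of 0.02 and -0.07 beside 0.04 over all genes, with 4 of 5 and 4 of 10 above 0. In females the library numbers of the 2 genotypes at 0 mg/kg/day were interleaved, and neither Dbp nor Arntl overlapped there (Dbp at least 63.6 against at most 42.7 CPM, Arntl at most 25.3 against at least 29.7 CPM). In males the numbers were not interleaved, Dbp did not overlap (at least 68.5 against at most 49.4 CPM) and Arntl did (19.5 to 30.1 against 23 to 40.4 CPM). The share of all genes that separated the genotypes within a single sex was not computed. The separations within a sex can therefore not be weighed against other genes.

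Around the 10 genes, a list of 31 other clock genes was read, of which 29 were tested and Rorb and Fbxl21 were not. At 10 against 0 mg/kg/day 14 of the 29 passed, 10 up and 4 down, beside 47.5% of all genes, and the median log2 change was 0.08 beside 0.04 over all genes. Rora, whose receptor activates Arntl, rose by 0.48 ± 0.11 (edgeR adjusted p = 0.000322). Ciart, a repressor of the Arntl and Clock pair, rose from a median of 4.44 to 9.12 CPM, by 0.99 ± 0.21 (edgeR adjusted p = 0.000172). Bhlhe41, an E-box repressor, fell from a median of 47.8 CPM (20.3 to 81.1) to 25.2 CPM (15 to 42.2), by 0.82 ± 0.12 on the log2 scale (edgeR adjusted p = 2.54e-07). Its paralog Bhlhe40, the gene nearest to Dbp between mice, had a log2 change of -0.18 ± 0.12 (edgeR adjusted p = 0.219). The kinases that mark Per proteins or tune their turnover rose by less: Csnk1d by 0.23 ± 0.07, Csnk1e by 0.24 ± 0.07 and Gsk3b by 0.45 ± 0.12. Also up were Cipc (0.27 ± 0.08), a Clock inhibitor, the deacetylase Sirt1 (0.39 ± 0.07), the histone methylation genes Kmt2a (0.48 ± 0.08) and Wdr5 (0.22 ± 0.07), and Sfpq (0.28 ± 0.06). The other falls were Timeless (-0.53 ± 0.16) and the ubiquitin ligase genes Fbxl15 (-0.38 ± 0.13) and Btrc (-0.13 ± 0.05). Of these, Timeless lost its call in 1, Fbxl15 in 4 and Btrc in 6 of 59 settings, and Btrc was at 0.08 without scaling factors. The D-box factors related to Dbp did not pass: Tef had -0.03 ± 0.07 and Hlf -0.10 ± 0.11 (edgeR adjusted p = 0.731 and 0.466).

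**Figure D4:**
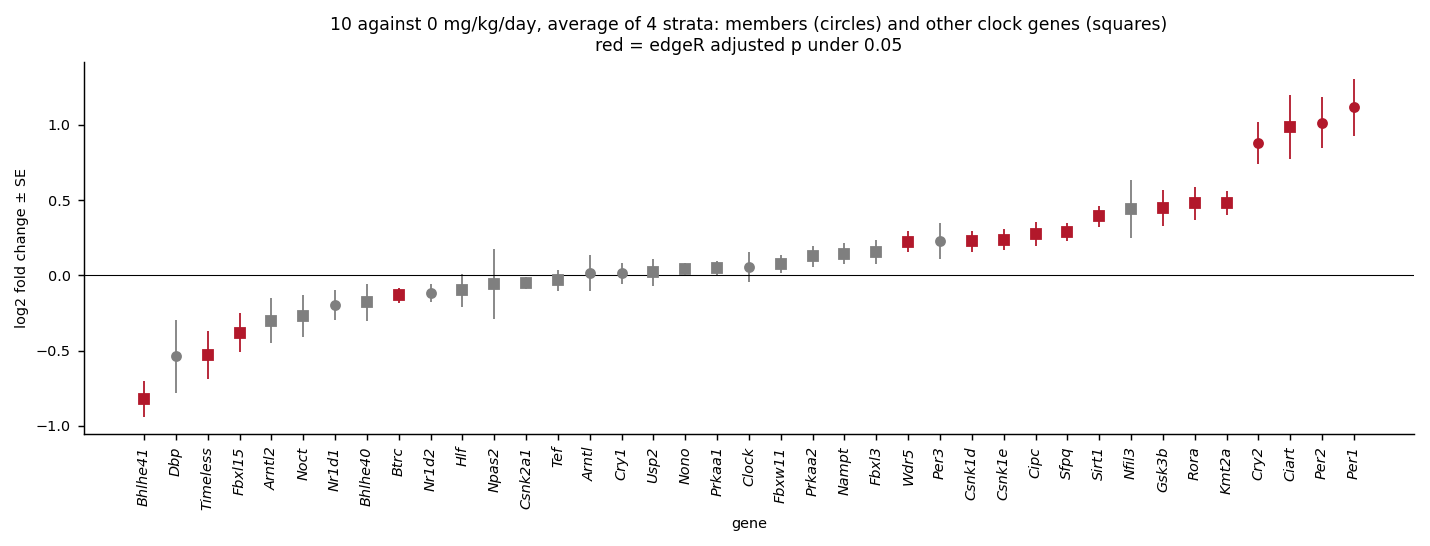
Log2 fold change ± SE at 10 against 0 mg/kg/day (mean of the strata) for the 10 clock genes (circles) and 29 other clock genes (squares), in order of size, with red for an edgeR adjusted p under 0.05. Per1, Per2, Ciart and Cry2 stand apart at the upper end and Bhlhe41, Dbp and Timeless at the lower end, while Arntl, Clock and Cry1 lie close to 0.

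Genes that answer to glucocorticoid hormone moved beside Per1 and Per2. Of 18 such genes 15 rose and 1, Dusp1, fell (-0.97 ± 0.14) at 10 against 0 mg/kg/day, with a median log2 change of 0.90 beside 0.04 over all genes, of which 47.5% passed and 25% passed upward. The 18 were chosen with earlier results of these data known, so their count is not an independent reading. The smallest p were those of Pik3r1 (2.16 ± 0.13), Fkbp5 (1.58 ± 0.19) and Cdkn1a (1.47 ± 0.19; edgeR adjusted p = 4.47e-16, 8.91e-09 and 3.82e-08). Tsc22d3, among the 2 that did not pass, had a log2 change of 0.05 (edgeR adjusted p = 0.773). It was not called in any of the 59 alternative settings. In Cyp2b-null females 3 of the 18 rose and 1 fell, with a median of -0.07 beside 0.03 over all genes, of which 12.7% passed. In that stratum Per1 did not pass, while Per2 had its largest rise (1.64). The part of glucocorticoid in the rise of Per1 and Per2 was not tested. With the mean log2 CPM of the 10 adipocyte markers as a covariate, the changes of Per1, Per2 and Cry2 were 1.19, 1.08 and 0.99 (edgeR adjusted p = 0.000108, 5.3e-05 and 6.93e-06). Without the 6 libraries that carried liver or lymph node transcripts they were 1.24, 1.11 and 0.98 (edgeR adjusted p = 2.57e-05, 1.03e-05 and 3.2e-06). Both settings were added after seeing the data.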

How the data were processed

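The deposited table holds whole-number read counts for 54532 genes in 48 libraries, 1 per mouse. Per the submitters' processing notes HISAT2 and GRCm39 were used, in no stated role, while the table's gene coordinates are those of GRCm38. Not given in the sources used here: counting program, annotation, use of strand.

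The members and gene lists were chosen with earlier results of these data known. Genes were kept by filterByExpr (15583 genes) and scaled by TMM. They were fitted with edgeR 4.0.16 (R 4.3.3) by its quasi-likelihood test, with 1 coefficient per group of 12, 36 residual degrees of freedom and Benjamini-Hochberg adjustment over all genes at 0.05. Effects averaged over strata weight the 4 strata equally. Log2 CPM used a prior count of 2. The 10 genes were named in every comparison, other clock genes where they passed at 10 against 0 mg/kg/day or belonged to a described family, and 3 glucocorticoid genes by smallest p. Dusp1 was named because it fell and Tsc22d3 because it did not pass. In the list of other clock genes 1 gene is not reported here. Of 73 library pairs within groups, none agreed within sampling noise. Alternatives used DESeq2 1.42.0, limma 3.58.1 (voom), other scalings and filters, a replicate block, and each library left out. The fit was tested on simulated data.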

Additional observations from a re-analysis of the deposited data

Results flagged for a closer look

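Per2 and Cry2 were far from the rest of their group in the same mouse, replicate 2 of the hCYP2B6-Tg females at 10 mg/kg/day. Its Per2 was 26.1 CPM against 12.9 to 14.7 CPM in the other 3 mice, and its Cry2 was 292.1 CPM against 53.6 to 70.3 CPM. That mouse also had the lowest Dbp of the study (5.2 CPM) and the highest Per1 (232.6 CPM), and its Arntl, 44.6 CPM, was the highest of its group. Per2 was low in replicate 4 of the hCYP2B6-Tg males at 0 mg/kg/day, at 7.55 CPM against 14.1 to 16.3 CPM. Nr1d1 was high in replicate 1 of the Cyp2b-null males at 0 mg/kg/day, at 205.3 CPM against 131.5 to 140.1 CPM. Of 110 groups of 4 or 5 values of the 10 genes 4 stood out in this way, and chance alone sets a sample apart by this measure in about 1 group in 20.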

How the results depend on the processing

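Calls and log2 changes were recomputed under 59 alternatives, of which 48 left out 1 library. Correlations, directions per mouse, differences within a library, levels per length and likeness were not. Per1, Per2 and Cry2 at 10 against 0 mg/kg/day passed in all 59. With library totals and no scaling factors the median of all genes moved from 0.04 to 0.26 on the log2 scale, and the calls among the 10 genes went from 3 to 6 at 10 against 0, from 5 to 9 at 10 against 1 and from 1 to 6 in Cyp2b-null females. Nr1d1 and Nr1d2 then turned to 0.009 and 0.095. limma voom gave 5 calls at 10 against 0, 2 in Cyp2b-null females, 2 between genotypes at 0 and 3 between sexes at 0 mg/kg/day, with Arntl at -0.017. A fit of only the groups compared gave 1 call in females of hCYP2B6-Tg and 2 in those of Cyp2b-null. Replicate numbers did not pair the mice: same-numbered libraries had a median correlation of -0.02, and 8 of 48 were nearest to a library of their own number. With the replicate block the calls in hCYP2B6-Tg males went from 2 to 1, Arntl was at -0.008 and Dbp passed at -0.591. Without the 6 libraries with liver or lymph node transcripts, or with the adipocyte covariate, both chosen after seeing the data, hCYP2B6-Tg males had 0 calls. Arntl was -0.002 in the former, and Cry1 was -0.11 and Nr1d2 0.01 in the latter. Leaving out 1 library gave 3 to 5 calls at 10 against 0, 5 to 6 at 10 against 1, 3 to 4 and 0 to 3 in females and males of hCYP2B6-Tg, 1 to 2 in each Cyp2b-null sex, 0 to 1 between sexes at 0, and 0 in the other comparisons. Arntl then ran from -0.074 to 0.062 and Cry1 from -0.035 to 0.055. The cause of these changes was not tested.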
